A study of Mus musculus with 24 samples.

Results

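The Egr and Nr4a early transcription factors were described in 24 RNA-seq libraries of mouse brain. They are 7 genes, Egr1, Egr2, Egr3, Egr4, Nr4a1, Nr4a2 and Nr4a3, picked by symbol from the 30270 genes of the deposited tables, and all 7 were found. The libraries came from bilateral micropunches of 2 regions, the nucleus accumbens (NAc) and the ventral tegmental area (VTA), of 12 mice on a C57BL/6 background. Each region held 3 libraries of each of 4 groups: wild-type (WT, labelled VDR+/+) mice given PBS, WT mice given morphine, mice lacking the vitamin D receptor (Vdr-/-) given PBS and Vdr-/- mice given morphine. Morphine sulfate was injected once into the peritoneum at 5 mg/kg. Mice without the receptor were fed extra calcium, so diet and genotype cannot be told apart. The receptor is lost throughout the body and from birth on, not in these regions alone. The study's results text puts the punches 90 min after either injection, whereas its methods text puts control mice at 60 min after saline. If the latter held for these mice, injection and time since injection cannot be told apart, which bears on genes that peak within this time. The sources do not give the age or the sex of these 12 mice.

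Both families are immediate early genes, which neurons transcribe within minutes of a stimulus from factors that are already in place. EGR proteins are zinc finger factors that bind GC-rich sites near promoters. The ERK kinases and serum response factor switch them on, and the NAB proteins hold them back. NR4A proteins are orphan nuclear receptors with no known ligand; they are strongly induced by cAMP through CREB and bind DNA alone or with the retinoid X receptors RXR. Egr1, Egr3 and Nr4a1 are used as markers of striatal neuron activity, and Egr2 is also the master regulator of myelination in Schwann cells. Nr4a2 (Nurr1) has another role: midbrain dopamine neurons need it all their life and use it to keep up tyrosine hydroxylase and the dopamine transporter.

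The 7 genes lie on 7 chromosomes. In GRCm38 with the GENCODE M21 annotation, Egr2 (ENSMUSG00000037868.15) spans chr10:67535475-67542188 on the plus strand, Egr3 (ENSMUSG00000033730.4) chr14:70077203-70082614 on the plus strand and Egr4 (ENSMUSG00000071341.4) chr6:85511121-85513589 on the minus strand. Nr4a1 (ENSMUSG00000023034.6) spans chr15:101254269-101274795 on the plus strand, Nr4a2 (ENSMUSG00000026826.13) chr2:57106830-57124003 on the minus strand and Nr4a3 (ENSMUSG00000028341.9) chr4:48045153-48086447 on the plus strand. Egr1 has the identifier ENSMUSG00000038418.7. All are protein coding, and no other annotated gene overlaps them. Nr4a1 is on the chromosome of the targeted gene, 3.34 Mb from Vdr, and a linked difference in strain was not tested.

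Promoter windows of 5 of the 7 genes were found among 32851 RefSeq windows (GRCm38.p6). The stretches before the transcription start that no annotated exon covers are shown for these 5 genes, whether or not they were called after morphine. Capitals mark the half-site of the cAMP response element, TGACG or its reverse CGTCA, to which CREB binds. The stretches are Nr4a1 chr15:101266596-101266845 (plus strand), Nr4a2 chr2:57124004-57124253 (minus strand), Nr4a3 chr4:48045055-48045152 (plus strand), Egr4 chr6:85513590-85513839 (minus strand) and Egr2 chr10:67537619-67537868 (plus strand).
Nr4a1: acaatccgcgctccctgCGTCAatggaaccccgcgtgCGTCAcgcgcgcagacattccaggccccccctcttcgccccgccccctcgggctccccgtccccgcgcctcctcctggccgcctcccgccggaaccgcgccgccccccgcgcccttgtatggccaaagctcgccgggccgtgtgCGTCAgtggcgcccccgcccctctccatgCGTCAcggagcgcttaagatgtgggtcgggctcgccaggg
Nr4a2: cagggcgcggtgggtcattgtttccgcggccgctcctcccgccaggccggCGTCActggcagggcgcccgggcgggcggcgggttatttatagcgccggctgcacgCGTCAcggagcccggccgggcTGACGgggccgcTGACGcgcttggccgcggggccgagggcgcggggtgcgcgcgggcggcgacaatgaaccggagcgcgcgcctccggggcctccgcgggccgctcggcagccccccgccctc
Nr4a3: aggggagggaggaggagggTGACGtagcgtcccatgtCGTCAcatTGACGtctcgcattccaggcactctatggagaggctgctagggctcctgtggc
Egr4: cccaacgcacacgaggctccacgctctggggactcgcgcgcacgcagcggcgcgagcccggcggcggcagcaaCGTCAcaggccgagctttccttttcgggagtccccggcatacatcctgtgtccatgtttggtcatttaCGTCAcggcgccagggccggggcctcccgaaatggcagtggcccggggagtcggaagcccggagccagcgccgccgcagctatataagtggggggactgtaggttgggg
Egr2: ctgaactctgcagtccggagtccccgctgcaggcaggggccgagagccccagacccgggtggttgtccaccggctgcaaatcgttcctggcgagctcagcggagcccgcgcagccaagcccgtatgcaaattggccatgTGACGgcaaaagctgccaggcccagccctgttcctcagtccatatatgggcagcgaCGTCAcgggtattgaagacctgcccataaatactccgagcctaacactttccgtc
The 250 bases before the RefSeq start held 4 half-sites each in Nr4a1, Nr4a2 and Nr4a3, and 2 each in Egr4 and in the Egr2 window shown. For Nr4a3 the stretch shown is only 98 of these 250 bases, and it holds 3 of the 4 half-sites. RefSeq gives 5 windows for Egr2, of which the one with the most half-sites and the longest stretch free of exons was chosen, 2 others overlap it and 2 hold no half-site. Of all windows, cut to the same 250 bases, 17.8% held at least 1 half-site on either strand and 3.9% held 2 or more. Over the full 250 bases, of which not all are shown for Nr4a3, the longer form TGACGT, which contains the half-site, was also counted. It occurred 3 times in Nr4a3, 2 times in Egr4 and 1 time in Egr2, against 6.47% of windows with any. The full element TGACGTCA was in none of these windows and in 1.55% of all. A CArG box, the motif of serum response factor, was in the Egr2 window and in 1.47% of all, and an EGR site was in the Nr4a1 window and in 3.06% of all. The NR4A motif AAAGGTCA was in none of the members' windows and in 1.34% of all. These matches describe letters in short windows. Binding was not measured, and a link with the changes after morphine was not tested.

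The libraries held 9328726 to 30184426 reads on genes. Vdr itself had 0 to 17 reads per library, 0 to 17 in Vdr-/- and 1 to 17 in WT mice, so its count cannot check the genotype labels. The labelled regions matched their markers. The sum over 9 of 9 genes of medium spiny neurons was at least 2464 CPM (reads per 1000000 reads on genes) in every NAc library and at most 322 in every VTA library, and the sum over 11 of 11 genes of dopamine neurons was at most 69.9 CPM in the NAc and at least 259 in the VTA. The dopamine marker Foxa2 was at 0 in all NAc libraries. Within the VTA the dopamine sum differed widely between libraries, and 1 NAc library, WT PBS mouse 2, stood apart in its bias toward short and GC-rich genes (Spearman rho of its deviations with exon length -0.439, against -0.132 to 0.211 in the other NAc libraries). The same rho was above 0 in all 12 morphine libraries and in 1 of the 12 PBS libraries. Its part in the results was not tested beyond the fits with this trend removed.

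**Figure D1:**
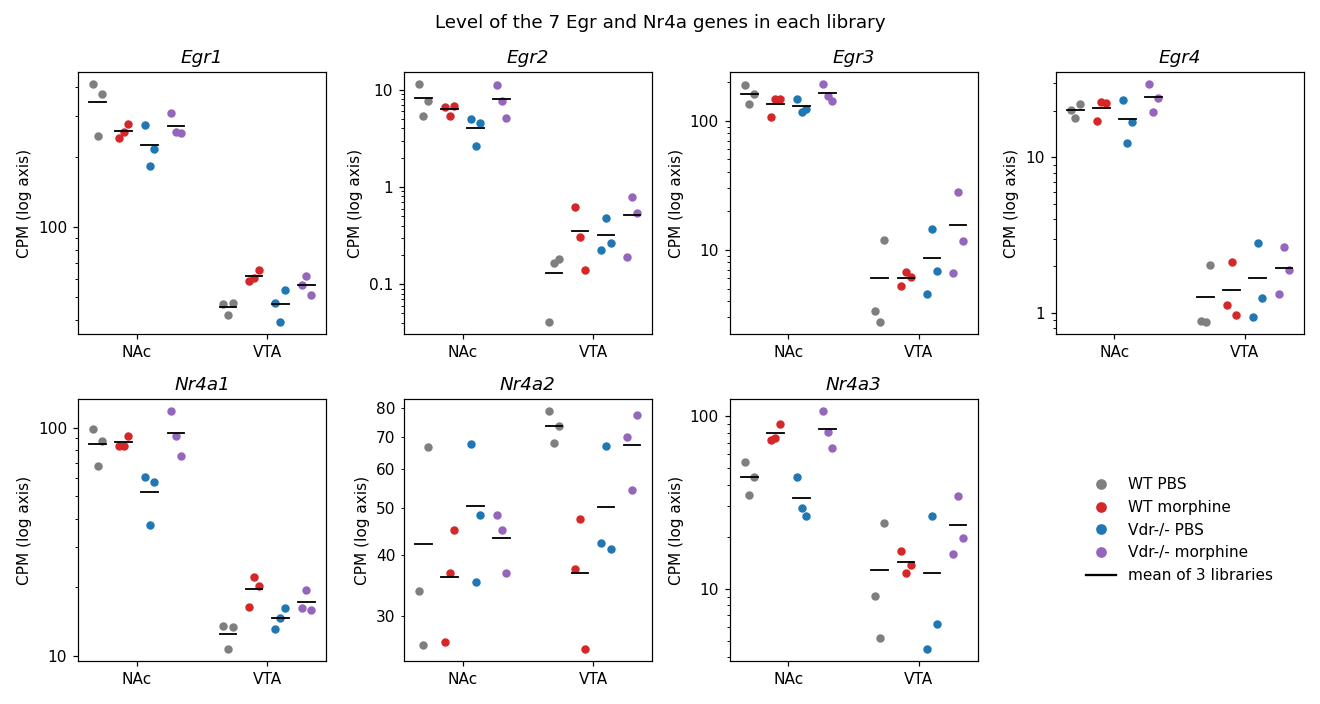
CPM (log axis) of each gene in each of the 24 libraries, by region and group; points are libraries and bars are means of 3. In each mouse all genes but Nr4a2 sit higher in the NAc than in the VTA, while Nr4a2 spans 26.1 to 67.7 CPM in the NAc and 25.6 to 79.0 CPM in the VTA.

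Egr1 and Nr4a2 led the 7 genes in their regions. On a scale of CPM per kilobase of exon, which allows genes to be compared, Egr1 was the highest in the NAc at 61.3 ± 14.2 (SD, n = 12 libraries), above 98.3% of the genes with reads there. Egr3 followed at 33.4 ± 5.90, Nr4a1 at 22.7 ± 6.08, Nr4a2 at 10.6 ± 3.34, Nr4a3 at 10.1 ± 4.25, Egr4 at 9.61 ± 2.06 and Egr2 at 1.95 ± 0.768. The first 4 kept this order within each of the 12 libraries. Nr4a2 and Nr4a3 could not be ordered (Nr4a2 was above in 5 of 12 libraries), nor could Nr4a3 and Egr4 (Nr4a3 above in 5 of 12). Egr2 lay below all others in every library.

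The VTA had another order. Nr4a2, the dopamine neuron factor, was first at 14.0 ± 4.40 CPM per kilobase, close to Egr1 at 11.7 ± 1.85, and each was above the other in 6 of 12 libraries. Nr4a1 followed at 4.57 ± 0.939, Nr4a3 at 2.61 ± 1.53, Egr3 at 2.05 ± 1.59, Egr4 at 0.736 ± 0.328 and Egr2 at 0.0969 ± 0.0673. Nr4a1 was above Nr4a3, and Nr4a3 above Egr3, in 9 of 12 libraries each. Egr2 had only 1 to 14 reads per VTA library, too few for the filter on low values (a mean of at least 10), so it was not tested in any VTA comparison.

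Within mice, 6 of the 7 genes were called higher in the NAc, against 35.1% of all 16147 genes called higher there and 72.9% called in either direction. Egr3 was higher by 4.36 ± 0.225 on the log2 scale (limma log2 difference ± SE, adjusted p = 2.9e-09), Egr2 by 4.29 ± 0.277 (adjusted p = 2.25e-08) and Egr4 by 3.80 ± 0.199 (adjusted p = 3.37e-09). Egr1 was higher by 2.44 ± 0.0587, Nr4a1 by 2.34 ± 0.0778 and Nr4a3 by 2.13 ± 0.242, all with adjusted p of at most 4.53e-06. Each of these was higher in the NAc of 12 of 12 mice (exact sign-flip permutation test, two-sided, p = 0.000488, the smallest that 12 mice can give). The values rest on 1 added to each scaled read count, so those of Egr2 and Egr4, low in the VTA, are understated. Fewer cells of a type and less RNA per cell cannot be told apart in punches.

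Nr4a2 was the exception. Its difference was -0.33 ± 0.163 (adjusted p = 0.0867, exact sign-flip p = 0.14), and it was higher in the NAc of 3 of 12 mice. It was called lower in the NAc when mouse 3 (-0.43, adjusted p = 0.0264), mouse 1.2 (-0.43, adjusted p = 0.0276) or mouse 7 (-0.41, adjusted p = 0.0396) was left out.

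**Figure D2:**
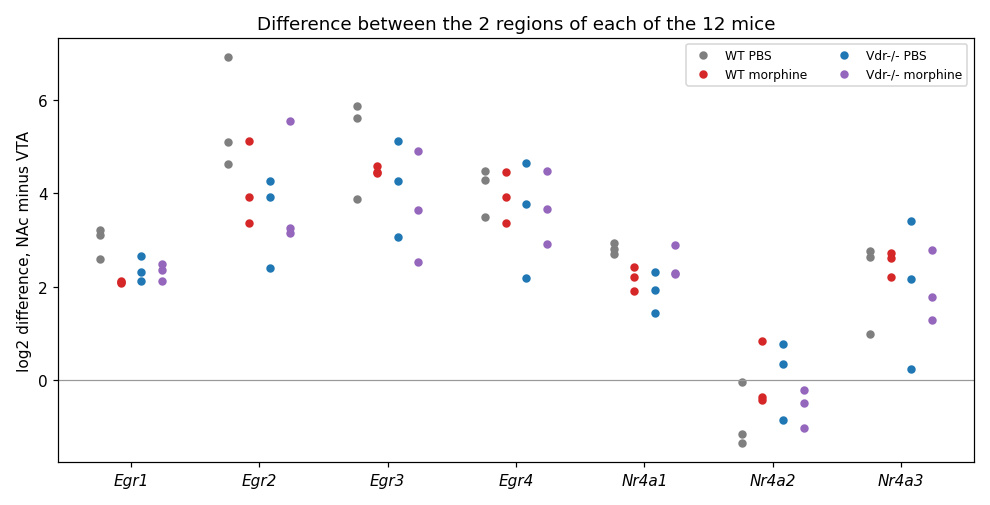
Difference between regions (log2 of scaled reads plus 1, NAc minus VTA) of each gene in each of the 12 mice, coloured by group. All points of 6 genes lie above 0, from 0.24 for Nr4a3 in 1 PBS mouse to 6.91 for Egr2, and those of Nr4a2 run from -1.35 to 0.84.

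After morphine 3 of the 7 genes rose in the NAc of Vdr-/- mice: Nr4a3, Nr4a1 and Egr2. None was called lower. In this comparison 19.1% of 15820 genes were called, in both directions nearly alike (1573 higher and 1445 lower), and the median log2 fold change was 0.47 over the 7 genes and -0.01 over all. Here and below, fold changes are limma values on log2(deposited value + 1), with Benjamini-Hochberg adjustment over all genes tested and a threshold of 0.05.

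Nr4a3 (Nor1), an inducible NR4A gene, changed most. It stood at 44.5, 29.5 and 26.2 CPM after PBS (mice 7, 8 and 9) and at 107, 80.3 and 65.5 CPM after morphine (mice 2.0, 2.1 and 2.2). All morphine values were above all PBS values. The log2 fold change was 1.30 ± 0.188 (SE, adjusted p = 0.00109). Nr4a1, the classical immediate early gene of the family, stood at 61.1, 37.4 and 57.8 CPM after PBS and at 118, 91.9 and 75.0 CPM after morphine, again without overlap, with a log2 fold change of 0.84 ± 0.180 (adjusted p = 0.00845). For both, the exact permutation p was 0.1, the smallest that 3 against 3 libraries allow, and 37.9% of all genes had groups that did not overlap.

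Egr2 stood at 5.03, 2.66 and 4.55 CPM after PBS and at 11.2, 7.71 and 5.15 CPM after morphine. The library of mouse 2.2 was close to the highest PBS library, and the size varied accordingly (0.90 ± 0.279, adjusted p = 0.042, exact permutation p = 0.2). Its call was lost without mouse 2.0 (0.63, adjusted p = 0.157), 2.1 (0.90, adjusted p = 0.12), 8 (0.62, adjusted p = 0.0987) or 9 (1.01, adjusted p = 0.0708), while Nr4a1 and Nr4a3 stayed called without any 1 library. It was also lost with quantile normalization (0.88, adjusted p = 0.0542) and with edgeR on all 12 NAc libraries (0.95, adjusted p = 0.0951). Without the mean-variance trend of limma only Nr4a3 was called, and Nr4a1 then had an adjusted p of 0.0895.

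The other 4 genes did not pass. Egr3, which synaptic activity induces, had a log2 fold change of 0.30 ± 0.107 (adjusted p = 0.0696), Egr4 0.47 ± 0.201 (adjusted p = 0.127) and Egr1 0.25 ± 0.123 (adjusted p = 0.18). All 3 were called higher without PBS mouse 7 (Egr1 0.41, adjusted p = 0.00778; Egr3 0.41, adjusted p = 0.0139; Egr4 0.71, adjusted p = 0.0104), which held the highest PBS value of each. Egr3 was also called without mouse 2.2 (0.40, adjusted p = 0.0462). Nr4a2 had a value of the other sign, -0.21 ± 0.184 (adjusted p = 0.447), and was called lower without PBS mouse 8 (-0.45, adjusted p = 0.0317). Its PBS values were 67.7, 35.2 and 48.4 CPM and its morphine values 48.4, 45.0 and 36.8 CPM.

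In WT mice none of the 7 genes was called in the NAc, where 0.813% of 15749 genes were (2616 genes had an unadjusted p under 0.05, among them 1 of the 7). The low share depends on the fit: edgeR on all 12 NAc libraries called 1075 genes in WT and 1177 in Vdr-/- mice. Nr4a3 came nearest. It stood at 54.3, 34.7 and 44.2 CPM after PBS (mice 1, 2 and 3) and at 72.6, 74.8 and 89.9 CPM after morphine (mice 1.0, 1.1 and 1.2). The groups did not overlap, as for 25.5% of all genes, and the log2 fold change was 0.82 ± 0.179 (adjusted p = 0.091, exact permutation p = 0.1). It was called by DESeq2 on the recovered reads (0.80, adjusted p = 0.00214), with the trend with exon length and GC content removed (0.76, adjusted p = 0.0477) and without PBS mouse 2, the library that stood apart (0.64, adjusted p = 0.0253). By edgeR on all 12 NAc libraries it missed the threshold (0.79, adjusted p = 0.054).

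Egr1, Egr2 and Egr3 had values of the other sign in WT mice. Egr1 stood at 412, 246 and 374 CPM after PBS and at 241, 257 and 276 CPM after morphine, with PBS mouse 2 among the morphine values. Its log2 fold change was -0.41 ± 0.198 (adjusted p = 0.349), and without PBS mouse 2 it was called lower (-0.66, adjusted p = 0.00731). Egr2 (-0.34 ± 0.277) and Egr3 (-0.30 ± 0.174) did not pass either, and neither did Nr4a2 (-0.17 ± 0.356), Egr4 (0.010 ± 0.147) and Nr4a1 (0.015 ± 0.149). The 2 genotypes were then compared directly. The difference between their morphine effects (Vdr-/- minus WT) was 1.25 ± 0.468 for Egr2, 0.82 ± 0.292 for Nr4a1, 0.66 ± 0.271 for Egr1, 0.60 ± 0.236 for Egr3, 0.48 ± 0.320 for Nr4a3, 0.46 ± 0.309 for Egr4 and -0.05 ± 0.466 for Nr4a2. None passed the adjustment (adjusted p from 0.832 to 0.991), and neither did any other of the 15788 genes (0%, with 916 at an unadjusted p under 0.05, of which 4 were members). A differing response of the genotypes was thus not shown, and for Nr4a3 the effect was positive in both.

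**Figure D3:**
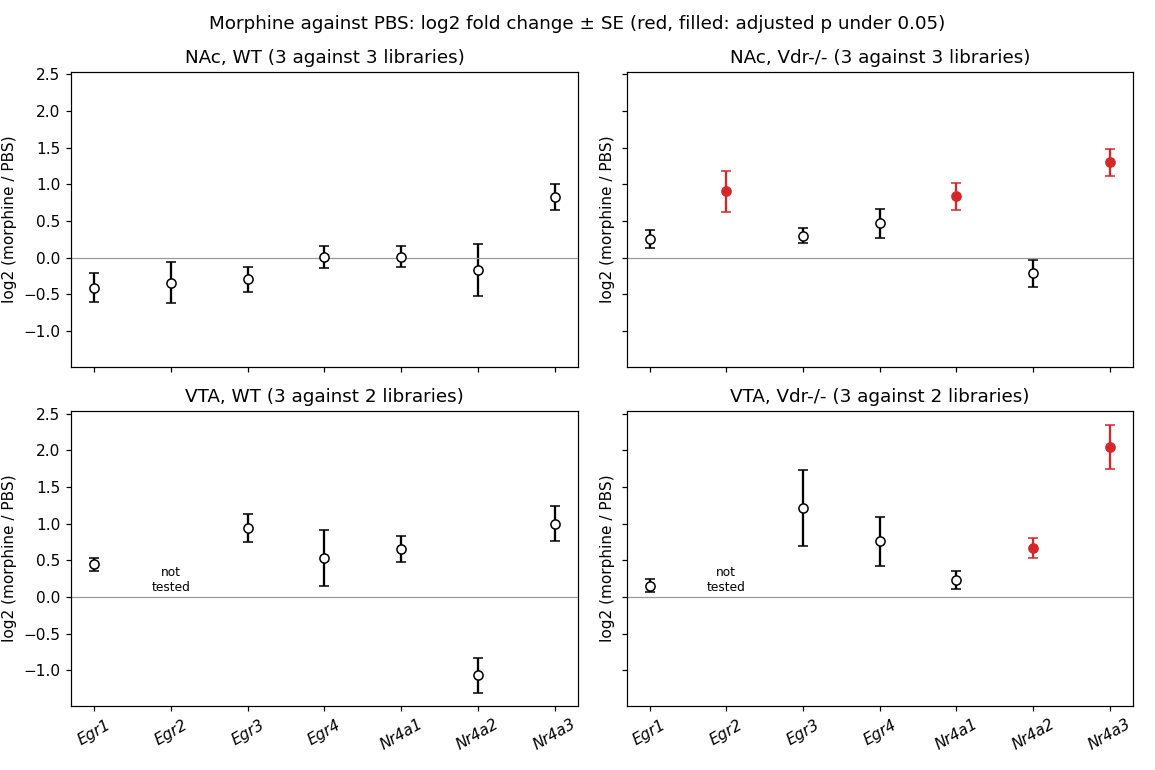
Log2 fold change of morphine against PBS ± SE for each gene in the 4 combinations of region and genotype; filled red points passed the threshold. Filled points appear in the Vdr-/- panels only, 3 in the NAc and 2 in the VTA, and Nr4a2 in the VTA lies at -1.07 in WT and at 0.67 in Vdr-/- mice.

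The comparison of genotypes after PBS shares its Vdr-/- libraries with the comparison above. Nr4a1 in the NAc was at 98.6, 67.9 and 87.6 CPM in WT PBS mice, above all 3 Vdr-/- PBS libraries, and Egr2 was at 11.5, 5.33 and 7.63 CPM, likewise without overlap. The log2 fold changes of Vdr-/- against WT were -0.69 ± 0.223 for Nr4a1 (adjusted p = 0.47), -0.95 ± 0.343 for Egr2 (adjusted p = 0.507) and -0.58 ± 0.235 for Egr1 (adjusted p = 0.543). The remaining values were -0.30 for Egr3, -0.22 for Egr4, -0.40 for Nr4a3 and 0.34 for Nr4a2. None was called, by limma, edgeR or DESeq2, against 0.0690% of 15933 genes by limma, while 3 of the 7 had an unadjusted p under 0.05, as did 1424 of all genes. Groups that did not overlap were found for 2 of the 7 and for 16.9% of all genes.

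After morphine the 2 genotypes lay close together in the NAc. The log2 fold changes of Vdr-/- against WT were 0.30 for Egr3, 0.29 each for Egr2 and Nr4a2, 0.24 for Egr4, 0.12 for Nr4a1, 0.08 for Egr1 and 0.07 for Nr4a3, all 7 above 0 (without mouse 2.0, Egr1, Nr4a1 and Nr4a3 were below 0), and none was called by limma, edgeR or DESeq2 (lowest adjusted p = 0.617 by limma) against 0.192% of 15638 genes, with 1 of the 7 and 1209 of all at an unadjusted p under 0.05. All 7 overlapped between the genotypes, whereas 13.5% of all genes did not. For Nr4a1, WT morphine libraries had 83.5, 83.5 and 91.6 CPM, within the Vdr-/- morphine range of 75.0 to 118 CPM.

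Cell markers moved with morphine in the NAc in both genotypes. The sum over 9 of 9 medium spiny neuron genes was 4356 to 5001 CPM in WT PBS and 2814 to 3582 CPM in WT morphine libraries, and 3770 to 4367 CPM against 2464 to 2823 CPM in Vdr-/- mice, with no marker at 0. These 9 genes were all called lower in Vdr-/- mice, where 4 of 6 oligodendrocyte and 4 of 6 microglia markers were called lower too. Astrocyte markers moved the other way, with 4 of 5 called higher in Vdr-/- mice. Their sum was 768 to 807 CPM after PBS and 947 to 1035 CPM after morphine in Vdr-/- mice, and 784 to 857 CPM against 933 to 1097 CPM in WT mice. The sum over 4 of 4 hippocampus markers was 35.2 to 41.6 CPM after PBS and 52.5 to 56.5 CPM after morphine in Vdr-/- mice, with 1 of 4 called higher. In WT mice this sum overlapped, at 39.8 to 54.6 CPM after PBS and 42.8 to 55.5 CPM after morphine. For Nr4a2 in the NAc, the 2 highest libraries (WT PBS mouse 3 and Vdr-/- PBS mouse 7) also had the highest sums over 6 of 6 cortical excitatory neuron genes, 950.3 and 1192 CPM, against 425 to 801 CPM in the other NAc libraries. The part of cell makeup in these results was not tested.

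In the VTA, Nr4a2 had the largest difference between the genotypes' morphine effects among the 6 genes tested. It stood at 79.0, 67.9 and 73.8 CPM in WT PBS mice 1, 2 and 3 and at 37.4, 47.3 and 25.6 CPM in WT morphine mice 1.0, 1.1 and 1.2. No morphine value reached a PBS value. In Vdr-/- mice it stood at 42.4, 66.8 and 41.2 CPM after PBS (mice 7, 8 and 9) and at 70.0, 54.4 and 77.6 CPM after morphine (mice 2.0, 2.1 and 2.2), so that all morphine values were above those of mice 7 and 9, with mouse 8 among them. The deposited VTA tables of morphine against PBS left out WT PBS mouse 3 and Vdr-/- PBS mouse 8, and these comparisons used 3 against 2 libraries.

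On these tables the log2 fold change of Nr4a2 was -1.07 ± 0.237 in WT mice, which missed the threshold (adjusted p = 0.0617, exact permutation p = 0.2). It was 0.67 ± 0.139 in Vdr-/- mice, which passed (adjusted p = 0.0312, exact permutation p = 0.2). The difference of the 2 effects was 1.74 ± 0.315 (adjusted p = 0.0856, unadjusted p = 0.000252), against 0.0553% of 16288 genes called. This difference was called without WT morphine mouse 1.1 (1.96, adjusted p = 0.0174). It did not pass without limma's mean-variance trend (1.74, adjusted p = 0.225) or with edgeR on all 12 VTA libraries (1.45). Both settings called 0 of all genes, as did the fit with the trend with exon length and GC content removed. With all 6 libraries in DESeq2, the WT effect was called (-1.02, adjusted p = 2.76e-06) and the Vdr-/- effect was not (0.43, adjusted p = 0.399). The Vdr-/- call was lost also without mouse 2.2 (0.56, adjusted p = 0.081), 7 (0.70, adjusted p = 0.174) or 9 (0.64, adjusted p = 0.119), and the WT effect was called without mouse 1.1 (-1.29, adjusted p = 0.00379).

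Nr4a2 is itself a gene of dopamine neurons, and their other markers varied beside it. The sum over 11 of 11 dopamine neuron markers was 2834 to 3516 CPM in WT PBS libraries and 259 to 712 CPM in WT morphine libraries. In Vdr-/- mice it was 1684, 2722 and 675 CPM after PBS and 1011, 738 and 1447 CPM after morphine. The sum over 6 of 6 hypothalamic and mammillary genes, cells that border the VTA, was 39.4 to 152 CPM in WT PBS and 227 to 1011 CPM in WT morphine libraries, and 51.8 to 366 CPM against 157 to 284 CPM in Vdr-/- mice. No dopamine marker was at 0 in a VTA library. Glial markers also parted the injections in both genotypes. The sum over 6 of 6 oligodendrocyte markers was 11970 to 13022 CPM in WT PBS and 6108 to 10029 CPM in WT morphine libraries, and 11859 to 12284 CPM against 7998 to 8850 CPM in Vdr-/- mice, where all 6 were called lower. The sum over 6 of 6 microglia markers was 220 to 258 CPM against 127 to 146 CPM in WT mice, with 4 of 6 called lower, and 181 to 248 CPM against 143 to 164 CPM in Vdr-/- mice, with 1 called lower. The 2 VTA libraries with the lowest Nr4a2, WT morphine mice 1.2 and 1.0, also had the 2 lowest dopamine sums, 259 and 350.0 CPM. Among Vdr-/- libraries PBS mouse 9 was lowest in both (675 CPM of markers and 41.2 CPM of Nr4a2). PBS mouse 7 had 1684 CPM of markers with 42.4 CPM of Nr4a2, whereas morphine mouse 2.0 had 1011 CPM with 70.0 CPM. The part of punch position or cell makeup in the Nr4a2 result was not tested.

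**Figure D4:**
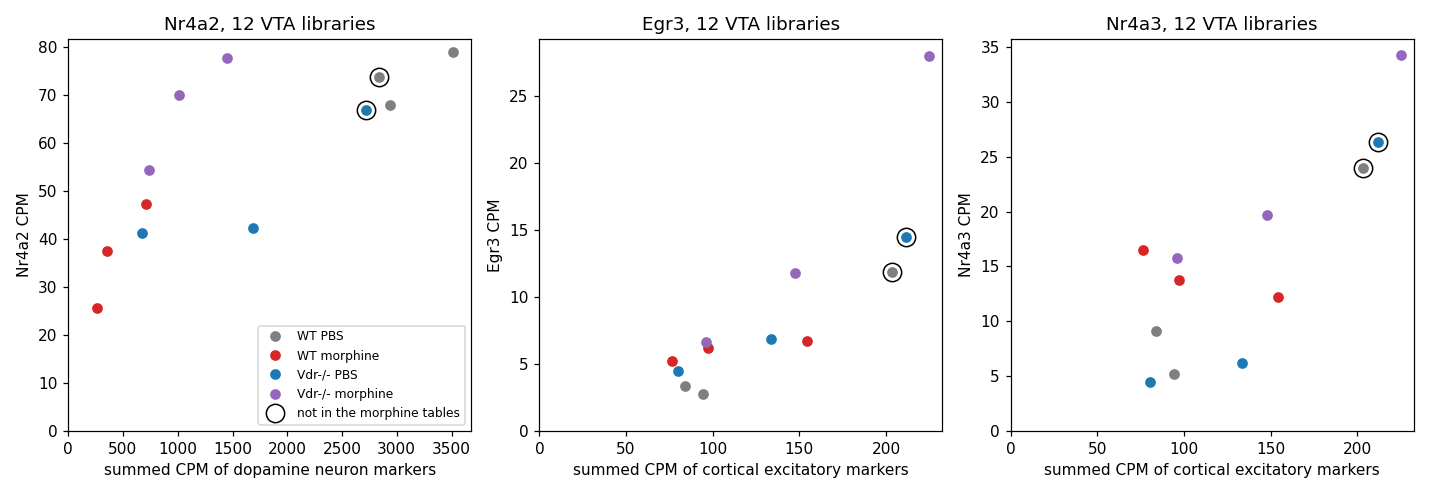
Nr4a2 CPM against the summed CPM of 11 dopamine neuron markers, and Egr3 and Nr4a3 CPM against the summed CPM of 6 cortical excitatory markers, in the 12 VTA libraries; rings mark WT PBS mouse 3 and Vdr-/- PBS mouse 8, which the morphine tables leave out. The ringed libraries lie among the highest in Egr3 (11.9 and 14.5 CPM) and Nr4a3 (23.98 and 26.3 CPM) and have cortical marker sums of 204 and 212 CPM.

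Nr4a3 was the other gene called in the VTA of Vdr-/- mice, with a log2 fold change of 2.05 ± 0.304 (adjusted p = 0.0134, exact permutation p = 0.1). Both called genes were higher, against 10.02% of 16364 genes called in either direction, 775 of them higher, and 3 of the 6 tested genes had groups that did not overlap, against 48.4% of all. In all 6 libraries Nr4a3 stood at 4.45, 26.3 and 6.23 CPM after PBS and at 15.8, 34.3 and 19.7 CPM after morphine. The value of mouse 8, which the table leaves out, lay among the morphine values. With it, DESeq2 gave 0.91 (adjusted p = 0.573) and edgeR on all 12 VTA libraries 1.01 (adjusted p = 0.322), so the call depends on the deposited selection of libraries. On that selection DESeq2 called it (2.11, adjusted p = 0.000249). The call was lost there without limma's mean-variance trend (2.05, adjusted p = 0.0881). It was also lost without mouse 2.2 (2.13, adjusted p = 0.0546) or 7 (1.82, adjusted p = 0.119).

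In WT mice all 6 tested genes had VTA groups that did not overlap on the deposited table, against 44.3% of all genes, and none was called, against 3.65% of 16187 genes (3919 had an unadjusted p under 0.05, 5 of the 6 among them). DESeq2 on the recovered reads of the same 5 libraries called 5 of the 6, all but Egr4, and 1358 of all genes, against 591 by limma. The log2 fold changes were 0.44 ± 0.0900 for Egr1 (adjusted p = 0.0511), 0.94 ± 0.193 for Egr3 (adjusted p = 0.0529), 1.00 ± 0.244 for Nr4a3 (adjusted p = 0.0755), 0.66 ± 0.177 for Nr4a1 (adjusted p = 0.0892) and 0.53 ± 0.383 for Egr4 (adjusted p = 0.433). WT PBS mouse 3 separated these genes into 2 sets. It had 47.0 CPM of Egr1 and 13.4 CPM of Nr4a1, like PBS mice 1 and 2 (46.7 and 41.7 CPM, and 13.5 and 10.7 CPM), and below the morphine values of 58.6, 60.6 and 65.2 CPM for Egr1 and of 16.4, 22.2 and 20.2 CPM for Nr4a1. With it, DESeq2 called Egr1 (0.42, adjusted p = 0.000486) and Nr4a1 (0.62, adjusted p = 0.00502).

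For Egr3 and Nr4a3 the same mouse went the other way. It had 11.9 CPM of Egr3, against 3.37 and 2.74 CPM in PBS mice 1 and 2 and 5.22, 6.70 and 6.20 CPM after morphine. It had 23.98 CPM of Nr4a3, against 9.09 and 5.15 CPM in the other PBS mice and 16.5, 12.2 and 13.8 CPM after morphine. With it the DESeq2 values fell to 0.0034 for Egr3 (adjusted p = 0.999), 0.14 for Egr4 (adjusted p = 0.919) and 0.14 for Nr4a3 (adjusted p = 0.935). WT PBS mouse 3 and Vdr-/- PBS mouse 8 had 204 and 212 CPM summed over 6 of 6 cortical excitatory markers, and Vdr-/- morphine mouse 2.1, with the highest Egr3 (28.0 CPM) and Nr4a3 (34.3 CPM) of the VTA, had 225 CPM. The last of these also had 112 CPM summed over 4 of 4 choroid plexus markers, against 3.78 to 19.4 CPM in the other 11 VTA libraries. Of the cortical markers, the other 9 VTA libraries had 76.4 to 154 CPM. Blood markers were also highest in WT PBS mouse 3 (214 CPM over the 3 of 5 genes found). The part of these cells was not tested.

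Single libraries moved the WT calls in the VTA. Without mouse 1.0, Egr1 (0.50, adjusted p = 0.0326), Egr3 (1.06, adjusted p = 0.0349) and Nr4a1 (0.80, adjusted p = 0.0334) were called. Without mouse 1.1, Egr1 (0.44, adjusted p = 0.0254), Egr3 (0.85, adjusted p = 0.0364) and Nr4a3 (1.09, adjusted p = 0.0311) were called beside Nr4a2. In Vdr-/- mice the VTA values that did not pass were 0.15 ± 0.0909 for Egr1, 0.23 ± 0.124 for Nr4a1, 0.76 ± 0.333 for Egr4 and 1.21 ± 0.523 for Egr3, and Egr3 was called without mouse 2.0 (1.69, adjusted p = 0.0301). Between the genotypes the morphine effects (Vdr-/- minus WT) differed by 1.05 for Nr4a3, 0.27 for Egr3, 0.23 for Egr4, -0.29 for Egr1 and -0.43 for Nr4a1, with adjusted p from 0.391 to 0.909.

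Between genotypes at the same injection, no gene of the set was called in the VTA. After PBS, Nr4a2 was lower in Vdr-/- mice by value, without overlap, with a log2 fold change of -0.61 ± 0.175 (adjusted p = 0.201). After morphine it was higher by value, without overlap, at 0.90 ± 0.221 (adjusted p = 0.409). These comparisons share libraries with those of morphine against PBS. The sums of dopamine neuron markers parted the genotypes in the same directions. They were 2834 to 3516 CPM in WT and 675 to 2722 CPM in Vdr-/- mice after PBS. After morphine they were 259 to 712 CPM and 738 to 1447 CPM. The part of cell makeup in these differences was not tested. The genes called were 0.390% of 16425 after PBS and 0.0624% of 16029 after morphine, and groups did not overlap for 20.5% and 14.5% of genes. At an unadjusted p under 0.05 there were 2338 genes after PBS, 1 of them a member, and 1406 after morphine, of which 3 were members. DESeq2 on the recovered reads called Nr4a2 in both (-0.58, adjusted p = 0.0159, and 0.87, adjusted p = 0.00639), and without Vdr-/- PBS mouse 8 it was called after PBS (-0.83, adjusted p = 0.00489). Egr3 had 1.10 ± 0.449 after morphine (adjusted p = 0.56) and Nr4a3 0.64 ± 0.256 (adjusted p = 0.551). The other values after morphine were 0.48 for Egr4, -0.14 for Egr1 and -0.18 for Nr4a1. After PBS they were 0.65 for Egr3, 0.32 for Egr4, 0.21 for Nr4a1, 0.017 for Egr1 and -0.23 for Nr4a3.

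The morphine effect was also compared between the regions of the same mice, with all 12 VTA libraries. In WT mice Egr1 differed, by -0.86 ± 0.166 (NAc minus VTA, adjusted p = 0.0127), against 6.69% of 16147 genes called, and the call was lost without mouse 1.2 (-0.87, adjusted p = 0.0556). Within-mouse differences of Egr1 were 2.59 to 3.21 after PBS and 2.08 to 2.11 after morphine. The other 6 genes did not pass, with -1.40 for Egr2, -0.63 each for Egr3 and Nr4a1, -0.17 for Egr4, 0.38 for Nr4a3 and 0.87 for Nr4a2. In Vdr-/- mice none of the 7 passed, with 0.60 for Nr4a1, 0.45 for Egr2, 0.14 for Egr4, 0.014 for Nr4a3, -0.04 for Egr1, -0.46 for Egr3 and -0.67 for Nr4a2, against 0.545% of genes.

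Other genes of the same pathways were counted by comparison. Of all genes, 19.1% were called in either direction in the NAc of Vdr-/- mice, 0.813% in the NAc of WT, 10.02% in the VTA of Vdr-/- and 3.65% in the VTA of WT mice, and the counts of this and the following lists stand beside these shares. Of 21 other early transcription factors, 8 of 18 tested rose in the NAc of Vdr-/- mice and none fell, with a median of 0.49. Those with the largest changes were Fosl2 (1.19) and Fos (1.11), partners in AP-1, the pluripotency factor Klf4 (1.12), and Nfil3 (1.06), a repressor of clock genes. Of 8 inhibitors of ERK signaling, which ERK itself induces, 6 rose and none fell, among them Spry4 (1.02), Dusp4 (0.75), Dusp5 (0.55) and Dusp1 (0.49). In the NAc of WT mice 2 of 19 early factors rose, Atf3 (1.72) and Fosl2 (0.82), and none of the 8 inhibitors passed. In the VTA 5 of 19 early factors rose in Vdr-/- mice, with Fosl2 at 1.32, Fosb at 1.04, Fos at 0.68 and Jun at 0.58, and 2 of 18 in WT mice, Fosb (1.16) and Fosl2 (0.99). Of the 8 inhibitors, 1 rose in the VTA of each genotype, Spred1 (0.28) in Vdr-/- and Dusp14 (0.74) in WT mice.

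Genes taken as targets moved in both directions. Of 9 EGR targets tested in the NAc of Vdr-/- mice, the neurotrophin receptor gene Ngfr (1.88) and the synaptic gene Arc (1.28) rose, while the receptor subunit genes Gabra4 (-0.28) and Grin1 (-0.27) fell. In WT mice only Ngfr rose there (2.23). In the VTA of Vdr-/- mice 1 of 9 rose and 1 fell, the latter Ngfr (-0.93), and in WT mice none of 9 passed. Of the NR4A targets, 7 of 9 fell in the VTA of WT mice, led by the dopamine transporter Slc6a3 (-4.68), tyrosine hydroxylase Th (-3.35), the vesicle transporter Slc18a2 (-3.06) and the GDNF receptor Ret (-2.37). The median of this list was -2.17, against -0.01 over all genes, and 5 of its 9 genes are on the list of dopamine neuron markers too. In Vdr-/- mice none of 8 passed in the VTA (median -0.04). In the NAc of Vdr-/- mice Ret (1.74) and the peptide gene Vip (0.61) rose and Slc6a3 fell (-1.49), and in WT mice none of 8 passed.

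The factors that drive early genes moved by little, in both directions in the NAc of Vdr-/- mice, while those that passed in the VTA rose. Of 17 drivers, all tested, 2 rose and 3 fell in the NAc of Vdr-/- mice (5 of 17, against 19.1% of all genes). Crtc3 (0.27) and Ep300 (0.20), coactivators of CREB, rose, and the calcium-regulated factor Mef2a (-0.32) and Mkl1 (-0.22), which acts with serum response factor, were among those that fell. In the VTA, where 3 of 17 passed in Vdr-/- and 2 of 17 in WT mice, Creb1 (0.35), Elk1 (0.34) and Crebbp (0.25) rose in Vdr-/- mice, and Mkl2 (0.52) and Crtc1 (0.37) rose in WT mice. None of the 17 passed in the NAc of WT mice. Of 7 corepressors and partners, the EGR corepressor Nab1 (0.27) rose in the NAc of Vdr-/- mice and the NR4A partners Rxrg (-0.45) and Rxrb (-0.21) fell there, and none passed in the other comparisons of morphine with PBS. Between genotypes the one gene called from these lists was Npas4, a factor specific to neuronal activity, which was higher in Vdr-/- than in WT mice after morphine in the NAc (0.44, adjusted p = 0.044). Of all 15638 genes, 0.192% were called in that comparison. Npas4 was close to the threshold and was not followed in the alternative fits.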

How the data were processed

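RNA was measured by stranded mRNA-seq (101-base paired-end reads) in 24 libraries, 12 of each region. The authors trimmed with Trimmomatic 0.36, aligned to the mouse genome with STAR 2.4.2a, counted reads by gene and normalized the counts with DESeq2. CASAVA 1.8 is also named in the submitters' processing notes. The deposited signal is a normalized count, given in 8 tables of 2 groups each. Divided by what 1 read is worth, 100.0% of the values were whole numbers (tolerance 0.01), which gave back the read counts. For morphine against PBS in the VTA the tables lack WT PBS mouse 3 and Vdr-/- PBS mouse 8, so 5 libraries were used where 6 had been assumed.

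Groups came from the labels. Each table was fitted with limma 3.58.1 (R 4.3.3) on log2(value + 1), two-sided, over genes whose mean reached 10, with adjustment over all of them. Morphine effects were compared between genotypes from both tables of a region. Regions were compared as NAc minus VTA within mice, on reads scaled over all 24 libraries. Members also had exact permutation tests (numpy 2.4.6). CPM came from the recovered reads. Scripts were tested on simulated data. Alternatives were edgeR 4.0.16 and DESeq2 1.42.0 on the recovered reads, other pseudocounts, filters and normalization, single libraries left out, and, chosen after seeing the data, removal of the trend with exon length and GC content and all 6 VTA libraries. The genes, the pathway and marker lists and the tests were chosen with earlier results of these data known. All 7 genes are named in every comparison, and of each list at most 4 called genes, those with the largest change, apart from items that are not reported here.

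The regions of a mouse were paired by the mouse numbers in the labels (correlations of their deviations from group means -0.0665 to 0.168 over 12 mice). The mouse numbers come from the labels, so p-values measure the spread between mice. Replicates were no duplicates (chi-square per degree of freedom 3.99 to 34.5 over pairs). Annotation was GENCODE M21 on GRCm38, with 30204 of 30270 identifiers found. Counts limit precision for Egr2 in the VTA, with 1 to 14 reads per library.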

Additional observations from a re-analysis of the deposited data

Results flagged for a closer look

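The morphine effect on Egr1 in WT mice differed between the regions by -0.86 on the log2 scale (NAc minus VTA, limma, adjusted p = 0.0127). Of all 16147 genes, 6.69% were called in this comparison, and the call of Egr1 was lost without mouse 1.2 (-0.87, adjusted p = 0.0556). The within-mouse difference was lower in 3 of 3 morphine mice than in any of the 3 PBS mice. How many of all genes part in this way was not computed.

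The morphine effect on Nr4a2 in the VTA differed between the genotypes by 1.74 (Vdr-/- minus WT, limma, adjusted p = 0.0856). On the deposited tables all 3 morphine libraries lay below the 2 PBS libraries in WT mice, and all 3 lay above the 2 in Vdr-/- mice. Groups did not overlap for 44.3% of all genes in WT and 48.4% in Vdr-/- mice. Vdr-/- PBS mouse 8, which the deposited tables leave out here, had 66.8 CPM, among the Vdr-/- morphine values of 54.4 to 77.6 CPM. The test of the difference did not pass.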

How the results depend on the processing

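Count tests, the mean-variance trend and the choice of libraries changed how many members were called. In the NAc of WT mice, where none was called, DESeq2 and the fit with the length and GC trend removed called 1 each, and leaving out 1 library gave 0 to 2. In the NAc of Vdr-/- mice the 3 called fell to 1 without limma's trend and to 2, without Egr2, with quantile normalization and with edgeR on all 12 libraries, and ran from 2 to 6 with 1 library left out. In the VTA of WT mice, again with none called, quantile normalization and the trend removed gave 1 each, DESeq2 gave 5, edgeR on all 12 libraries 3 and DESeq2 on all 6 libraries 3, with 0 to 4 when 1 library was left out. In the VTA of Vdr-/- mice the 2 called fell to 0 without limma's trend, with edgeR on all 12 libraries and with DESeq2 on all 6, and ran from 0 to 3. Between genotypes in the VTA, DESeq2 called 1 after PBS and 1 after morphine (290 and 95 of all genes). Leaving out 1 library gave 0 to 1 after PBS (13 to 370 of all genes). With 1 library or mouse left out, 0 to 1 were called for the genotypes' difference in the VTA (0 to 226 of all genes). For the regions' difference in WT mice 0 to 1 were called (225 to 1248 of all genes). Over all genes these settings moved the counts as well: limma without its trend called 0 in the VTA of Vdr-/- mice against 1639 with it, 56 against 591 in the VTA of WT, 1237 against 3018 in the NAc of Vdr-/- and 27 against 128 in the NAc of WT mice. DESeq2 called 1358, 493, 2045 and 1809 in the VTA of WT, the NAc of WT, the NAc of Vdr-/- and the VTA of Vdr-/- mice. In the same order edgeR on all 12 libraries of a region called 3275, 1075, 1177 and 1296 genes. With 1 library left out, limma called 0 to 2817, 0 to 627, 1566 to 3133 and 0 to 2272. DESeq2 on all 6 VTA libraries called 2386 in WT and 1399 in Vdr-/- mice. Quantile normalization called 600 of all genes in the VTA of WT and 2999 in the NAc of Vdr-/- mice. With the length and GC trend removed, 607 were called in the VTA of WT and 234 in the NAc of WT mice. The cause of these shifts was not tested.

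Some values changed sign, most of them near 0. In the NAc of WT mice Egr4 was -0.0097 with quantile normalization and -0.0019 with edgeR on all 12 libraries, and -0.094 to 0.14 with 1 library left out. Nr4a1 was -0.0055 with quantile normalization, -0.0056 with edgeR, -0.0064 with DESeq2, -0.0086 with edgeR on all 12 libraries, and -0.16 to 0.14 with 1 left out. Nr4a2 ran from -0.47 to 0.24 there, and from -0.45 to 0.028 in Vdr-/- mice. Its difference between the genotypes' morphine effects was 0.038 with edgeR on all 12 libraries and ran from -0.45 to 0.26. Egr3 in the VTA of WT mice, 0.94 on the deposited table, was -0.0041 with edgeR on all 12, which adds PBS mouse 3. Of Vdr-/- against WT in the NAc, Egr4 ran from -0.46 to 0.018 after PBS, and after morphine Egr1 ran from -0.014 to 0.14, Nr4a1 from -0.047 to 0.28 and Nr4a3 from -0.11 to 0.24. Of Vdr-/- against WT in the VTA after PBS, Egr1 was -0.029 with the trend removed and ran from -0.089 to 0.14, Egr4 ran from -0.12 to 0.70 and Nr4a3 from -0.998 to 0.37. The difference between the genotypes' morphine effects in the VTA ran from -0.28 to 0.75 for Egr3 and from -0.012 to 0.56 for Egr4. The difference between regions ran from -0.47 to 0.099 for Egr4 and from -0.19 to 0.70 for Nr4a3 in WT mice. In Vdr-/- mice it ran from -0.16 to 0.11 for Egr1, from -0.33 to 0.86 for Egr2, from -1.06 to 0.12 for Egr3, from -0.54 to 0.70 for Egr4 and from -0.84 to 0.75 for Nr4a3. No other sign changed among the values of single genes (48 of 1495 alternatives in all).

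The last digit of the mouse numbers could pair the morphine mice of the genotypes, but same-numbered mice did not deviate together (correlations -0.0627 to -0.0165 in the NAc and -0.28 to -0.151 in the VTA, 3 pairs each), and PBS mice share no number. With it as a replicate block 0 members were called between genotypes after morphine in either region, as without it. Genes called of all fell from 30 to 19 in the NAc and from 10 to 4 in the VTA. Without the mouse block the fit between regions called 6 members, as with it. Depth limits Egr2 in the VTA, at 1 to 14 reads per library.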

Other observations

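Correlations between the 7 genes within groups were described in each region. Pearson's r between the deviations of a pair of them from the group means ran from 0.48 to 0.96 over the 12 NAc libraries, with all 21 pairs above 0, while in the VTA it ran from -0.70 to 0.88, with 16 of 21 pairs above 0. The libraries share their depth and cell makeup across genes, and pairs of other genes were not computed beside them. These values are descriptions, and a tie particular to the 7 genes was not tested. In the NAc, Egr2 and Nr4a1 were the closest pair (0.96). In the VTA, Egr3 was close to Egr4 and to Nr4a3 (0.88 each), and Egr1 and Nr4a2 were the farthest apart (-0.70).

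Of 12719 genes with a mean of at least 50 scaled reads in the NAc, those most like the mean of the 7 in level were Sfrp1, a Wnt antagonist (Pearson's r = 0.90 over 12 libraries), the ERK inhibitors Spred2 (0.89) and Dusp6 (0.89), Utp14a (0.88) and Fmnl1 (0.87). For deviations from the group means they were the AP-1 gene Fosl2 (0.94), Sfrp1 (0.92), the CaMKII inhibitor Camk2n1 (0.91), Exoc8 (0.91) and Tnfrsf19 (0.91). In the VTA, of 12840 genes, they included Fam81a (0.96), Klhl3 (0.95), Srr (0.95) and Diaph2 (0.94) in level, and the NMDA receptor gene Grin2a (0.97), Lmo7 (0.96), Chst2 (0.96) and Slc25a22 (0.95) for deviations. These genes were picked as the highest of all ranked over only 12 libraries, so their r is no test of a tie. The VTA mean gives equal weight to Egr2, at 1 to 14 reads per library, and joins genes that deviated apart (Egr1 and Nr4a2, -0.70).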
